A study of Mus musculus with 14 samples.

Results

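Dazl, Boll, Ybx2, Ybx3, Cpeb1, Cpeb2, Papolb and Pabpc1 encode proteins that bind germ cell mRNAs and control when they are translated. These 8 genes were taken by name from the deposited count tables, in which 31111 genes were present for both cell stages, and all 8 passed the filter on low counts in every comparison. The libraries came from mouse testis germ cells of 2 genotypes, homozygous for a knockout of the DNA methyltransferase gene Dnmt3c (KO, Dnmt3C KO/KO) or wild type (WT). Spermatogonia (Spg, 3 KO and 3 WT libraries) were sorted at postnatal day 14 as live EpCAM-positive cells negative for β2-microglobulin, and spermatocytes (Spc, 4 KO and 4 WT libraries) from mice older than 20 days by Hoechst staining of DNA content. Mice were on a C57Bl6/J background, and cells of littermates were collected for both genotypes. Per the study's sort description, KO testes lack some meiotic stages and round spermatids, and the WT spermatocyte gate also held later cells. Stage therefore goes together with age and sort, and genotype in spermatocytes with the stages that were present.

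As background, male germ cells transcribe many mRNAs long before they translate them, so RNA-binding proteins decide when a protein is made. DAZL and BOLL, both of the DAZ family, bind mRNAs and promote their translation, DAZL from early germ cells on and BOLL in later male germ cells. The Y-box proteins YBX2 and YBX3 package and store mRNAs, CPEB1 and CPEB2 bind U-rich elements near mRNA ends and set the length of the poly(A) tail, PAPOLB is a testis-specific poly(A) polymerase, and PABPC1 is the main cytoplasmic poly(A)-binding protein.

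The genes lie apart in the genome (GRCm38), Dazl on chromosome 17 (50279395 to 50293636, minus strand), Boll on chromosome 1 (55248658 to 55363469, minus), Ybx2 on chromosome 11 (69935796 to 69941605, plus) and Ybx3 on chromosome 6 (131364855 to 131388476, minus). Cpeb1 lies on chromosome 7 (81347026 to 81455465, minus), Cpeb2 on chromosome 5 (43233170 to 43289724, plus), Papolb on chromosome 5 (142525838 to 142530076, minus) and Pabpc1 on chromosome 15 (36595661 to 36609668, minus). Papolb is a gene of 1 exon that lies inside Radil on the same strand. RefSeq promoter windows (GRCm38.p6, 250 bases before to 50 after a start) were at hand for 6 members and held 13 to 40 CpG, against a median of 7 over all 32851 windows. The windows were searched on both strands for an NRF1 half-site (GCATGCGC, in 2.71% of all windows), a CRE (TGACGTCA, 1.79%), an A-MYB core (AACNGT, 26.1%), an X-box half-site (GTTGCC, 12.5%) and a TATA box (TATAAA, 13.6%). Of 8 member windows, 4 held a match, and these are shown because they include Dazl and Boll, whose levels ran in opposite directions, and Cpeb1, which ran with Dazl. Dazl (chr17:50293571-50293870) and the downstream Boll start (chr1:55362679-55362978) each held 1 NRF1 half-site, the downstream Ybx2 start (chr11:69936078-69936377) held 1 X-box half-site and Cpeb1 (chr7:81454709-81455008) 1 TATA box. Matches are in capitals. Each window reads 5′ to 3′ along its gene, and all windows but that of Ybx2 lie on the minus strand of the genome. Read along the gene, the matches of Dazl, Ybx2 and Cpeb1 are on the opposite strand and show as reverse complements. That of Boll is on the strand of the gene.
Dazl: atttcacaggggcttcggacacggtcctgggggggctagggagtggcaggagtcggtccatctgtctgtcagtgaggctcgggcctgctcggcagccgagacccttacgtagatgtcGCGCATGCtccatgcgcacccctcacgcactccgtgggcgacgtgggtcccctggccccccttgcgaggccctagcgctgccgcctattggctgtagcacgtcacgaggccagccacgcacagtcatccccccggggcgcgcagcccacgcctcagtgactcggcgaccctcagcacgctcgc
Boll: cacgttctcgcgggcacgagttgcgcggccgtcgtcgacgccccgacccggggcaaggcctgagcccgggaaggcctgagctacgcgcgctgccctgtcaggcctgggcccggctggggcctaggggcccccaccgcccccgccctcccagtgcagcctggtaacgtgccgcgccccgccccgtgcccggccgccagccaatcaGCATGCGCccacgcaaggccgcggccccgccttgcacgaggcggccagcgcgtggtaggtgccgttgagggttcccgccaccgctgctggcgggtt
Ybx2: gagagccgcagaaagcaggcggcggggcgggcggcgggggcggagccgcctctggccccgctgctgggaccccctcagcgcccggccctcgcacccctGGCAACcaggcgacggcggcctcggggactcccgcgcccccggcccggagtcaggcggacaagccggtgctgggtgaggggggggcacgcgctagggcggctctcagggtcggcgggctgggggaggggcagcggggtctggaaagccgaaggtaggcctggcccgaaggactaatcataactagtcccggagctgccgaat
Cpeb1: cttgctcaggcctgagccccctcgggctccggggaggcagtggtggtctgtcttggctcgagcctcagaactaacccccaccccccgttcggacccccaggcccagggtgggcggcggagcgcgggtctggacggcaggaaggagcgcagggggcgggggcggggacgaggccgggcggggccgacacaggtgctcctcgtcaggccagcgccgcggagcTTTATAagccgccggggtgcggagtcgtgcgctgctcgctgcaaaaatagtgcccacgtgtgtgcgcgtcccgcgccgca

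Total counts per library ran from 40555726 to 53323651. Levels are given as CPM, each count set against its TMM-scaled library total, and a gene was called at an edgeR adjusted p under 0.01. Dnmt3c RNA was not lower in the libraries labelled KO, with 58 to 116 counts per library in KO spermatogonia against 53 to 89 in WT and 52 to 57 in KO spermatocytes against 11 to 28 in WT, so its level does not check the labels. Spermatocyte replicates 1 and 4 were much alike in each genotype, with a chi-square per degree of freedom of 11.6 in KO and 14.9 in WT against 129 to 286 for other spermatocyte pairs, though above sampling noise. The labels number 4 spermatocyte libraries a genotype, whereas legends in the publication speak of 3 biological replicates, and no source says whether replicates 1 and 4 are separate biological samples or technical replicates. They were counted as separate samples. If they are not, n is 3 and the p-values over 4 libraries are too small, so tests in spermatocytes were repeated with the 2 libraries summed or averaged. WT spermatogonia replicate 2 had a summed level of 10 pachytene markers of 1559 CPM against 503 and 268 in the other WT libraries. WT spermatocyte replicate 3 had the lowest sum of these markers among WT spermatocytes, 9196 CPM against 14144 to 17063, and the highest of 10 spermatogonia markers, 488 CPM against 177 to 400.0, and of 10 spermatid markers, 1760.3 CPM against 102 to 692.

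Through wild-type spermatogenesis, 6 of the 8 genes rose from spermatogonia to spermatocytes (Boll, Ybx2, Ybx3, Cpeb2, Papolb and Pabpc1) and 2 fell (Dazl and Cpeb1). All 8 were called, 6 higher and 2 lower, where 52.5% of the 24340 genes tested were called (29.2% higher and 23.3% lower). The groups did not overlap for any member, against 66.0% of all genes. The members' median log2 fold change was 2.35, beside 0.02 over all genes. Under scaling by library totals the median of all genes moved to -0.76 and all 8 calls and directions held, where 18.7% of all genes were higher and 35.8% lower. In the same comparison 10 of 10 pachytene markers and 9 of 9 tested spermatid markers were higher and 9 of 10 spermatogonia markers were lower and 1 higher. Early meiotic markers went both ways (2 of 10 higher and 2 lower), 3 of 6 Leydig, 2 of 6 macrophage and 1 of 5 erythroid markers were higher and 2 of 8 Sertoli markers lower, and their part in the members' course was not tested. In bulk libraries, fewer cells of a type and less RNA per cell cannot be told apart.

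In the DAZ family, Dazl was measured at 944, 858 and 1128 CPM in WT spermatogonia replicates 1 to 3 and at 117, 214, 575 and 117 CPM in WT spermatocytes replicates 1 to 4. Replicate 3 was the highest spermatocyte library, and all 4 lay below all spermatogonia. The log2 change was -1.93 ± 0.43 (SE, adjusted p 0.00137 by edgeR), and -2.70 without spermatocyte replicate 3. Boll went from 58.4, 99.0 and 56.7 to 408, 358, 267 and 448 CPM, a log2 change of 2.37 ± 0.29 (SE, adjusted p 1.89e-05 by edgeR). Per kilobase of exon Dazl led in spermatogonia, at 256 ± 36.1 CPM per kb (SD, n = 3) against 20.3 ± 6.82 for Boll, whereas in spermatocytes Boll had 105 ± 22.2 and Dazl 66.9 ± 57.0 (SD, n = 4), with overlapping libraries and Dazl above Boll in replicate 3.

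The Y-box genes made the steepest rise after Papolb. Ybx2 was at 135, 509 and 104 CPM in WT spermatogonia and at 4303, 4301, 2539 and 4138 CPM in WT spermatocytes. Ybx3 was at 89.0, 301 and 68.2 CPM and at 4271, 3413, 2084 and 4067 CPM. In both genes spermatogonia replicate 2 was the highest of its group and spermatocyte replicate 3 the lowest, without overlap between stages. The log2 changes were 3.94 ± 0.50 (SE, adjusted p 2.48e-05 by edgeR) for Ybx2 and 4.50 ± 0.50 (SE, adjusted p 1.17e-05 by edgeR) for Ybx3. Without spermatogonia replicate 2 they were 4.88 and 5.35.

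The CPEB genes moved against each other as the DAZ pair did. Cpeb1 fell from 75.2, 93.0 and 113 CPM in spermatogonia to 7.69, 19.4, 41.9 and 7.34 CPM in spermatocytes, with replicate 3 again the highest spermatocyte library. Cpeb2 rose from 54.4, 89.6 and 59.0 to 344, 294, 316 and 389 CPM, with little spread among the 4 spermatocyte libraries. The log2 changes were -2.29 ± 0.48 (SE, adjusted p 8.46e-04 by edgeR) and 2.31 ± 0.29 (SE, adjusted p 2.21e-05 by edgeR). Without spermatocyte replicate 3 that of Cpeb1 was -3.01.

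Of the poly(A) genes, Papolb had the largest fold change of the 8, from 13.3, 32.5 and 7.14 CPM to 882, 314, 374 and 908 CPM. Its spermatocyte libraries lay in 2 pairs, replicates 1 and 4 above replicates 2 and 3, and all 4 were above all spermatogonia. The log2 change was 5.13 ± 0.59 (SE, adjusted p 1.38e-05 by edgeR), and 5.82 without spermatogonia replicate 2. Radil, the gene around Papolb, had 86.3 to 129 CPM in WT spermatogonia and 185 to 349.9 CPM in WT spermatocytes. Pabpc1 rose from 1241, 1706 and 944 to 7052, 6840.3, 4659 and 7476 CPM, a log2 change of 2.33 ± 0.25 (SE, adjusted p 9.87e-06 by edgeR). By mean CPM per kb the order in WT spermatocytes was Ybx2 (2027 ± 455), Ybx3 (1125 ± 321), Pabpc1 (995 ± 193), Papolb (146 ± 75.2), Boll, Dazl, Cpeb2 (43.0 ± 5.23) and Cpeb1 (4.56 ± 3.87). The neighbours Ybx3 and Pabpc1 differed by less than the larger of their SDs, and so did each pair of neighbours from Papolb to Cpeb2.

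**Figure D1:**
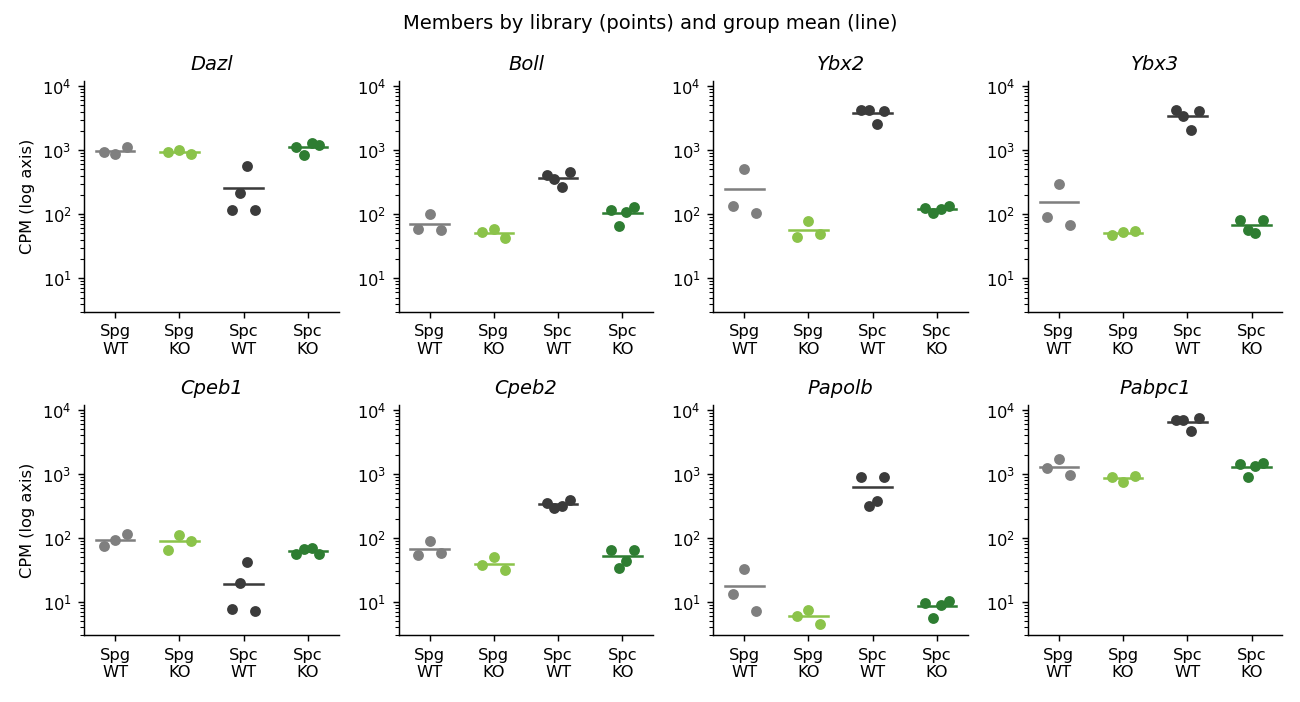
CPM of the 8 genes on a log axis, with 1 point per library and a line at the group mean, in wild-type (WT) and Dnmt3C KO/KO (KO) spermatogonia (Spg, 3 libraries a group) and spermatocytes (Spc, 4 libraries a group). WT spermatocytes stand alone, high for 6 genes and low for Dazl and Cpeb1, while KO spermatocytes lie near the spermatogonia.

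In spermatocytes, the comparison of KO with WT asks how expression differs in the absence of DNMT3C, which methylates young retrotransposons in male germ cells. It shares its 4 WT libraries with the course in WT above. The 6 genes that rose in WT were lower in KO, Papolb by 71.4-fold, Ybx3 by 51.2-fold, Ybx2 by 31.0-fold, Cpeb2 by 6.40-fold, Pabpc1 by 5.06-fold and Boll by 3.50-fold. Dazl was 4.51-fold higher. Of the 8 genes 7 were called, 1 higher and 6 lower, where 58.8% of 21919 genes were called (28.0% higher and 30.7% lower), and the groups did not overlap for any of the 8, against 68.4% of genes. Their median log2 fold change was -2.51, beside 0.11 over all genes. Scaling by library totals moved the median of all genes to 0.79, and under it all 8 genes were called in the same directions, where 36.8% of all genes were called higher and 22.3% lower. With replicates 1 and 4 of each genotype summed, 6 were called, all lower, where 15.9% of all genes were higher and 23.5% lower.

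Dazl was at 1129, 853, 1272 and 1224 CPM in KO spermatocytes, each library above the 117 to 575 CPM of WT and near the spermatogonia of either genotype. Its log2 fold change was 2.17 ± 0.49 (SE, adjusted p 0.00266 by edgeR), and 2.93 without WT replicate 3. The call was lost without WT replicate 2 (log2 fold change 2.07, edgeR adjusted p 0.0108) and with replicates 1 and 4 of each genotype summed (1.92, adjusted p 0.0134), in a range of 3.41e-05 to 0.0134 over all alternatives. Boll was at 116, 66.4, 108 and 127 CPM, all below WT, with a log2 fold change of -1.81 ± 0.26 (SE, adjusted p 2.38e-04 by edgeR).

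Ybx2 was at 126, 105, 121 and 134 CPM in KO spermatocytes and Ybx3 at 79.9, 56.0, 51.4 and 80.6 CPM. The KO libraries differed little among themselves and lay far below the lowest WT libraries, 2539 CPM for Ybx2 and 2084 CPM for Ybx3. The log2 fold changes were -4.95 ± 0.27 (SE, adjusted p 2.53e-06 by edgeR) and -5.68 ± 0.35 (SE, adjusted p 2.98e-06 by edgeR). Ybx1, the Y-box gene used in most tissues, fell too, from 3107, 2901, 1837 and 3061 CPM in WT to 393, 322, 421 and 404 CPM in KO, with a log2 fold change of -2.81 ± 0.25 (SE, adjusted p 1.27e-05 by edgeR).

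Cpeb1 was at 55.8, 67.2, 69.3 and 56.6 CPM in KO against 7.69, 19.4, 41.9 and 7.34 CPM in WT. The groups did not overlap, and the log2 fold change of 1.75 ± 0.51 (SE, adjusted p 0.0105 by edgeR) missed the threshold. Without WT replicate 3 it was 2.46 with an edgeR adjusted p of 0.000453, in a range of 0.000453 to 0.0332 over all alternatives. Cpeb2 was at 65.7, 33.7, 43.1 and 65.0 CPM, all below the lowest WT library of 295 CPM, with a log2 fold change of -2.68 ± 0.26 (SE, adjusted p 2.42e-05 by edgeR).

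Papolb was at 9.54, 5.66, 8.94 and 10.5 CPM in KO spermatocytes, where the lowest WT library had 314 CPM, and its log2 fold change was -6.16 ± 0.48 (SE, adjusted p 7.07e-06 by edgeR). Papola, which encodes the poly(A) polymerase of most cells, had 249.97, 182, 217 and 261 CPM in KO and 192, 252, 263 and 206 CPM in WT, which overlapped. Its log2 fold change was 0.02 ± 0.19 (SE, adjusted p 0.919 by edgeR). Radil had 71.5 to 82.2 CPM in KO. Pabpc1 was at 1399.7, 887, 1303 and 1499 CPM, all below the lowest WT library of 4659 CPM, with a log2 fold change of -2.34 ± 0.27 (SE, adjusted p 6.02e-05 by edgeR). Pabpc2, a testis gene of the same family, was at 2.95, 0.161, 0.515 and 3.58 CPM in KO against 1565, 625, 463 and 1631 CPM in WT, with a log2 fold change of -9.22 ± 1.09 (SE, adjusted p 7.18e-05 by edgeR), and -9.80 without KO replicate 4.

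**Figure D2:**
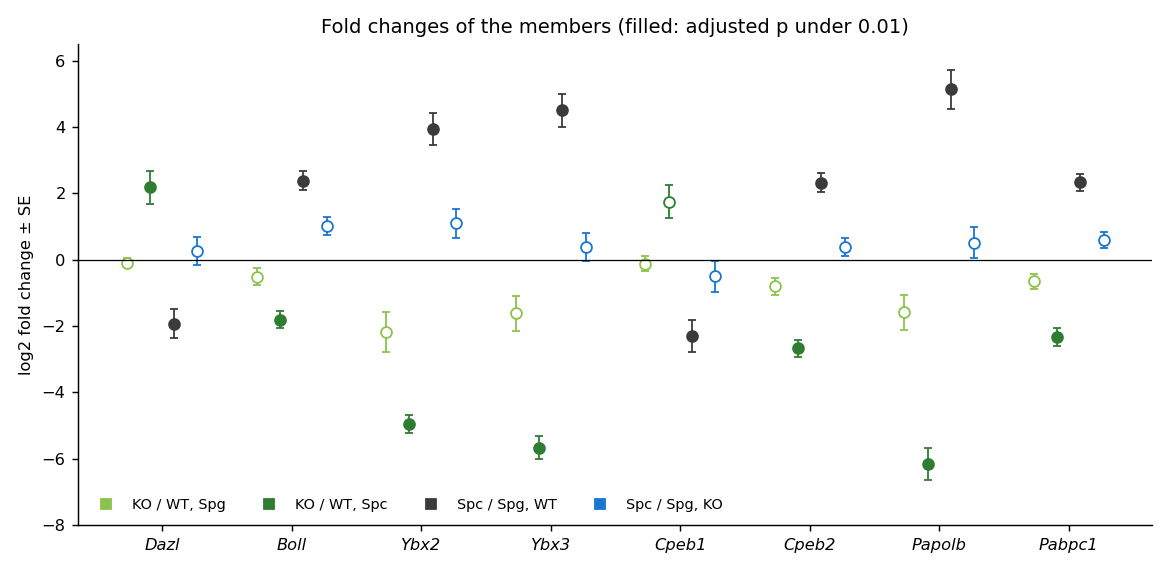
The log2 fold changes of the 8 genes with their SE in 4 comparisons, KO over WT in spermatogonia and spermatocytes and spermatocytes over spermatogonia in WT and KO, filled where the edgeR adjusted p was under 0.01. In spermatocytes KO over WT runs from 2.17 for Dazl to -6.16 for Papolb and has the opposite sign to spermatocytes over spermatogonia in WT, with which it shares the WT spermatocyte libraries.

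Other genes of the cell types in the sort moved with these results. The summed level of the 10 pachytene markers was 249.8 to 518 CPM in KO spermatocytes against 9196 to 17063 CPM in WT, with 9 of 10 lower and Mybl1 not called, and that of 10 spermatid markers was 6.43 to 15.4 against 102 to 1760.3 CPM, with 10 of 10 lower. The 10 spermatogonia markers summed to 500.2 to 1229 CPM in KO and 177 to 488 CPM in WT, with 6 higher and Id4 lower, and 10 early meiotic markers to 1548 to 3040.3 and 1777 to 2882 CPM, with 4 higher and Spo11 lower. Markers of somatic cells were higher too, 6 of 6 for Leydig cells (64.4 to 458 CPM in KO and 15.6 to 34 in WT), 6 of 6 for macrophages (24.3 to 109 and 4.14 to 6.11), Acta2, Myh11 and Des of 5 for peritubular cells (17.4 to 172 and 3.62 to 10.9) and Gata4 of 8 for Sertoli cells (278 to 1029.8 and 125 to 485). Of 5 erythroid markers 2 were tested and neither was called, also not at an unadjusted p under 0.05 (1.20 to 11.9 and 1.51 to 7.59 CPM). No marker of any list was at 0 in all libraries of either group, and the part of these cells in the members' changes was not tested.

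**Figure D3:**
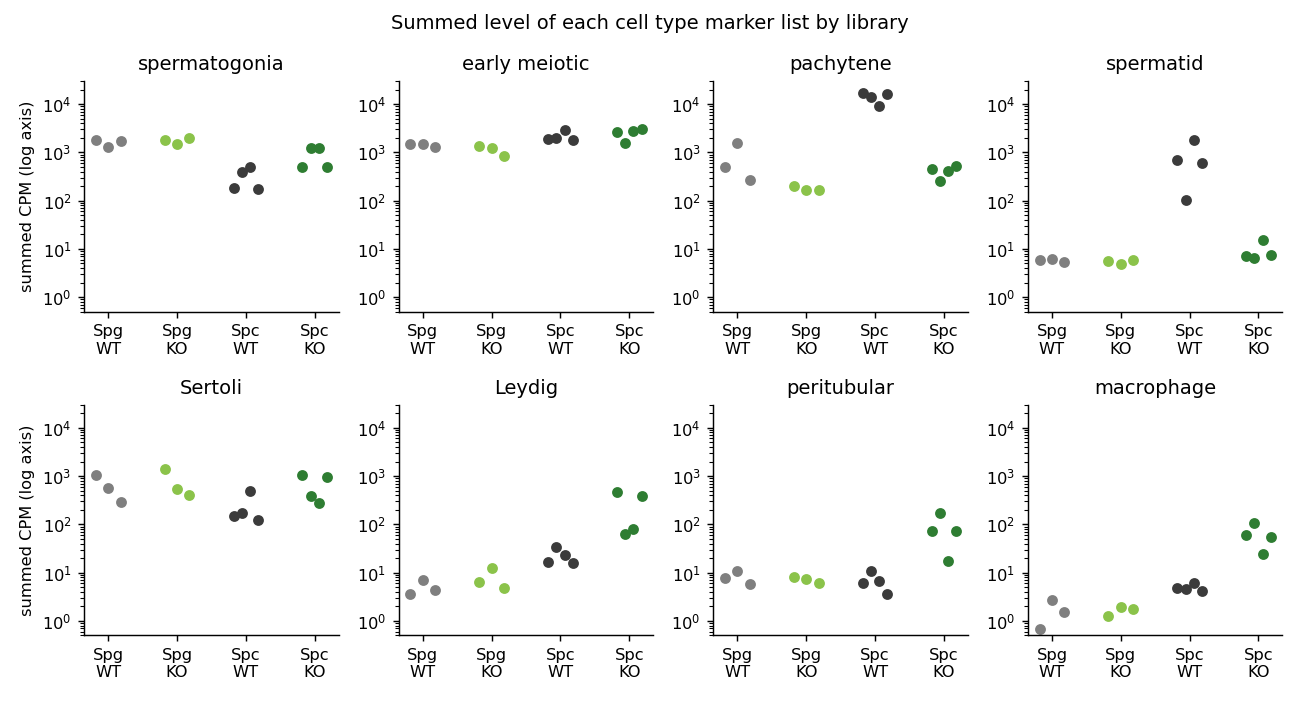
Summed CPM of 8 lists of cell type markers on a log axis, with 1 point per library, in WT and KO spermatogonia (Spg) and spermatocytes (Spc). Pachytene and spermatid sums are high in WT spermatocytes alone, and Leydig, peritubular and macrophage sums are highest in KO spermatocytes.

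In spermatogonia no member was called between KO and WT, where 9 of 20659 genes were (0.0436%, with 0.0387% higher and 0.00484% lower). The 8 log2 fold changes all lay at or under -0.09, with a median of -0.73 beside 0.02 over all genes. By edgeR 5 had an unadjusted p under 0.05, as had 1509 of the 20659 genes. The groups did not overlap for 4 genes (Ybx2, Ybx3, Cpeb2 and Pabpc1), against 12.1% of all genes. With the replicate number as a block 108 genes but no member were called, and with DESeq2's Wald test 514 genes and Ybx2 (adjusted p 0.00297) were.

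Ybx2 had the largest difference, at 44.4, 77.2 and 49.8 CPM in KO against 135, 509 and 104 CPM in WT. The KO libraries all lay below the WT ones, and WT replicate 2 stood far above the rest. The log2 fold change was -2.18 ± 0.59 (SE, adjusted p 0.245 by edgeR). Ybx3 was at 46.7, 52.6 and 55.4 CPM against 89.0, 301 and 68.2 CPM, again with WT replicate 2 the highest, and its log2 fold change was -1.62 ± 0.52 (SE, adjusted p 0.391 by edgeR). Without WT replicate 2 the values were -1.08 and -0.61.

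Papolb was at 6.11, 7.61 and 4.47 CPM in KO and 13.3, 32.5 and 7.14 CPM in WT, which overlapped, with a log2 fold change of -1.60 ± 0.53 (SE, adjusted p 0.422 by edgeR). Without WT replicate 2 the value was -0.76. Cpeb2 was at 37.3, 51.0 and 31.1 CPM in KO, below all WT libraries, with a log2 fold change of -0.81 ± 0.26 (SE, adjusted p 0.377 by edgeR). Pabpc1 was at 893, 739 and 912 CPM in KO, and its log2 fold change was -0.66 ± 0.23 (SE, adjusted p 0.473 by edgeR).

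Boll was at 53.3, 58.0 and 43.0 CPM in KO, with a log2 fold change of -0.52 ± 0.25 (SE, adjusted p 0.782 by edgeR). Dazl, the member with the highest level per length in spermatogonia, was at 927, 1009 and 877 CPM in KO, and its log2 fold change was -0.09 ± 0.13 (SE, adjusted p 0.9996 by edgeR). Cpeb1 was at 63.7, 112 and 89.0 CPM, with a log2 fold change of -0.12 ± 0.22 (SE, adjusted p 0.9996 by edgeR). All 3 genes overlapped with WT, and with 1 library left out the log2 fold change of Dazl ran from -0.15 to 0.0025 and that of Cpeb1 from -0.32 to 0.085.

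Pabpc2 had 0 counts in the 3 KO spermatogonia libraries and 243, 1764 and 28 counts in WT, the highest again in WT replicate 2. Against the floor of 3 counts per library, the mean of 13.3 CPM in WT was at least 249.4-fold higher, and without WT replicate 2 the mean of 2.36 CPM was at least 44.3-fold higher. The edgeR adjusted p was 0.176, and 0.00196 with the replicate number as a block. The pachytene markers summed to 166 to 196 CPM in KO spermatogonia and to 268 to 1559 CPM in WT, without overlap. None of the 10 was called by edgeR, though 7 had an unadjusted p under 0.05, as had 1509 of all 20659 genes. The spermatogonia markers summed to 1509.7 to 1959 and 1297 to 1784 CPM and the Sertoli markers to 398 to 1388 and 294 to 1074 CPM, with overlap. The part of later germ cells in the members' differences was not tested.

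From KO spermatogonia to KO spermatocytes no member was called by edgeR, where 3.05% of 24340 genes were (3.01% higher and 0.037% lower). None was called by DESeq2, where 8.6% of all genes were higher and 1.0% lower. By edgeR 3 members had an unadjusted p under 0.05, as had 5962 of the 24340 genes. The groups did not overlap for Boll and Ybx2, against 26.4% of all genes. Under library totals no member was called either, where 2.45% of all genes were called higher and 0.0288% lower. The largest log2 changes were 1.09 ± 0.43 (SE, adjusted p 0.139 by edgeR) for Ybx2 and 1.02 ± 0.27 (SE, adjusted p 0.0322 by edgeR) for Boll. Those of Ybx3, Cpeb2, Papolb, Pabpc1 and Dazl lay between 0.26 and 0.58 and that of Cpeb1 was -0.50. When WT spermatogonia replicate 2 and WT spermatocyte replicate 3 were both left out of the fit, which shares its spread with all groups, Boll and Ybx2 were called (adjusted p 0.00991 and 0.00373), where 3.78% of all genes were called higher and 0.08% lower. In the same comparison 5 of 6 macrophage, 3 of 6 Leydig, 1 of 5 peritubular and 1 of 10 early meiotic markers were higher, with median log2 changes of 6.74 for the macrophage and 6.29 for the Leydig markers, and no spermatogonia, pachytene, spermatid, Sertoli or erythroid marker was called. Their part in the members' values was not tested. Pabpc2 was at least 33.9-fold higher in KO spermatocytes (mean 1.80 CPM) than the floor of 3 counts per library in KO spermatogonia.

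The difference between the genotype effects of the stages was tested, as the effect in spermatocytes minus that in spermatogonia. On the same 14 libraries it equals the change from spermatogonia to spermatocytes in KO minus that in WT. Where the change in KO was small, the difference therefore follows the course in WT and adds little to it. It was called for 5 of the 8 genes, all lower, where 25.7% of 24340 genes were called (11.1% higher and 14.6% lower). The log2 difference was -4.62 ± 0.70 (SE, adjusted p 3.73e-04 by edgeR) for Papolb, -4.12 ± 0.60 (SE, adjusted p 3.17e-04 by edgeR) for Ybx3 and -2.84 ± 0.61 (SE, adjusted p 0.00269 by edgeR) for Ybx2, whose steep course in WT enters this difference. It was -1.93 ± 0.38 (SE, adjusted p 0.00162 by edgeR) for Cpeb2 and -1.74 ± 0.33 (SE, adjusted p 0.00130 by edgeR) for Pabpc1. Boll at -1.35 ± 0.37 (SE, adjusted p 0.0107 by edgeR), Dazl at 2.19 ± 0.61 (SE, adjusted p 0.0115 by edgeR) and Cpeb1 at 1.79 ± 0.67 (SE, adjusted p 0.0430 by edgeR) missed the threshold. By this test 5 of 10 pachytene, 6 of 9 spermatid and 1 of 10 spermatogonia markers were lower, 3 of 6 macrophage, 1 of 5 peritubular and 1 of 10 early meiotic markers were higher, and no Sertoli, Leydig or erythroid marker was called. Their part in the members' differences was not tested. Without WT spermatocyte replicate 3 all 8 members were called, Dazl at 2.95 and Cpeb1 at 2.51, where 19.9% of all genes were higher and 17.5% lower. Ybx2 lost its call, leaving 4, without KO spermatogonia replicate 2 (6.39% of all genes higher and 9.92% lower) or WT spermatogonia replicate 1 (7.25% and 8.57%). With the replicate number as a block Boll and Dazl were called too but not Cpeb1, where 11% of all genes were higher and 13.5% lower. Without WT spermatogonia replicate 2 the log2 difference was -5.36 for Papolb, -5.03 for Ybx3 and -3.84 for Ybx2. Under scaling by library totals, which moved the median of all genes from 0.20 to 0.90, 3 members were called (Ybx3, Papolb and Dazl), where 17.5% of all genes were higher and 7.12% lower.

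Since a ratio of 2 genes within a library does not depend on the scaling between libraries, related genes were set against each other per length of exon. Boll over Dazl had log2 ratios of 1.92, 0.86, -0.99 and 2.06 in WT spermatocytes and -3.16, -3.56, -3.44 and -3.15 in KO. Cpeb2 over Cpeb1 had log2 ratios of 4.58, 3.02, 2.01 and 4.83 in WT and -0.66, -1.89, -1.58 and -0.70 in KO. In the 6 spermatogonia libraries of both genotypes the log2 ratios ran from -4.23 to -2.995 for Boll over Dazl, a range that holds all 4 KO spermatocyte libraries, and from -2.41 to -0.95 for Cpeb2 over Cpeb1, a range that holds KO spermatocyte replicates 2 and 3.

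Papolb over Papola had log2 ratios of 2.84, 0.96, 1.14 and 2.78 in WT spermatocytes and -4.07, -4.37, -3.96 and -3.99 in KO. Ybx2 over Ybx1 had 0.90, 0.99, 0.89 and 0.86 in WT and -1.21, -1.19, -1.37 and -1.16 in KO, and Ybx3 over Ybx1 had 0.18, -0.05, -0.10 and 0.13 and -2.58, -2.80, -3.31 and -2.61. Pabpc2 over Pabpc1 had -0.83, -2.11, -1.99 and -0.86 and -7.55, -11.01, -9.94 and -7.37. No ratio overlapped between the genotypes in spermatocytes, and each was lower in KO. For Boll over Dazl and Cpeb2 over Cpeb1 this follows from the CPM above, where both genes separated in opposite directions, so their test outcome was fixed beforehand. The difference of the means was -4.29 for Boll over Dazl, -2.14 for Ybx2 over Ybx1, -2.87 for Ybx3 over Ybx1, -4.82 for Cpeb2 over Cpeb1, -6.03 for Papolb over Papola and -7.52 for Pabpc2 over Pabpc1. The two-sided exact permutation p was 0.0286 for each of the 6 ratios, also after Benjamini-Hochberg adjustment over them, which is the smallest that 4 against 4 allows. With replicates 1 and 4 averaged it was 0.10, the smallest that 3 against 3 allows. In spermatogonia, also 3 against 3, the ratios are given as values only.

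**Figure D4:**
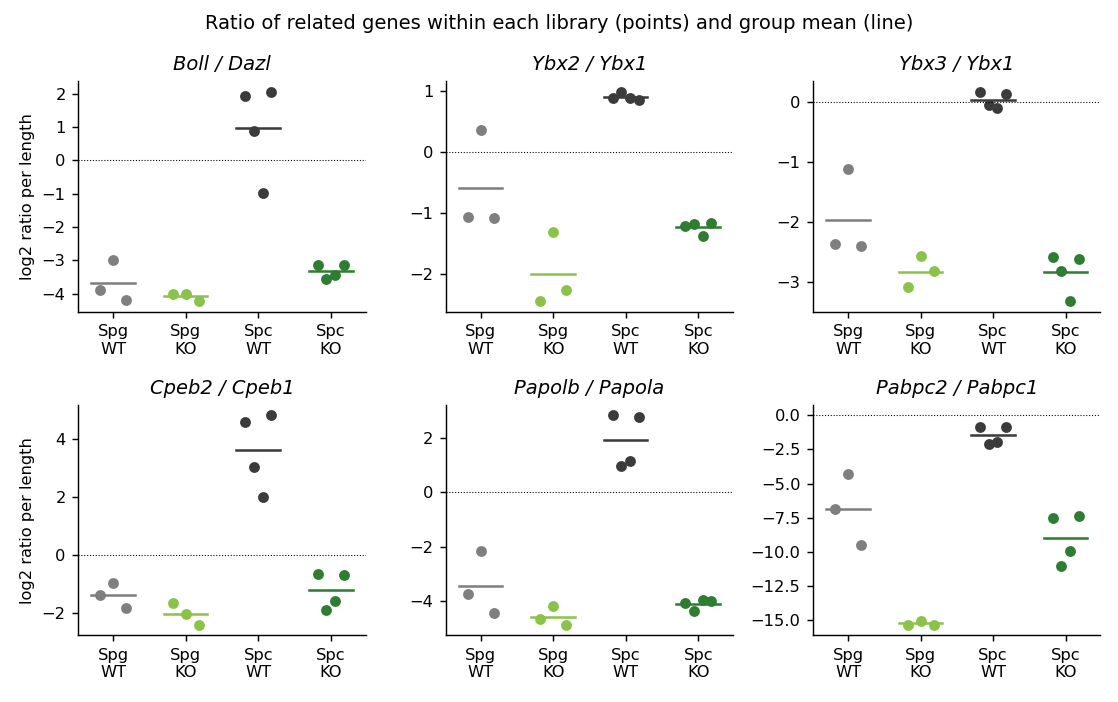
The log2 ratio per length of exon of 6 pairs of related genes, with 1 point per library and a line at the group mean, in WT and KO spermatogonia (Spg) and spermatocytes (Spc), with a dotted line at equal level. WT spermatocytes lie above KO spermatocytes in each pair, and the KO spermatogonia points of Pabpc2 over Pabpc1 are set by the 0.5 count added to the 0 counts of Pabpc2.

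Around the 8 members, 9 lists of 114 further genes of mRNA control and of mRNAs under it were followed. In spermatocytes 28 of the 111 tested were higher in KO and 37 lower, near the shares over all genes (28.0% higher and 30.7% lower), and their median log2 fold change was -0.19 beside 0.11 over all genes. Under library totals 41 were higher and 27 lower, where 36.8% and 22.3% of all genes were. In spermatogonia none of 106 was called by edgeR, and 16 had an unadjusted p under 0.05, as had 1509 of all 20659 genes. In the blocked fit 1 was lower (Pabpc2) and by DESeq2 2 were lower, where 0.392% and 1.83% of all genes were. Without a filter 1 was lower (0.257% of all genes), as was 1 without WT replicate 3 (0.0507%). In the difference between stages 12 of 112 were higher and 22 lower (11.1% and 14.6% over all genes), or 28 and 11 under library totals (17.5% and 7.12% over all genes). The list counts were 24 and 32 by DESeq2 (19.9% and 20.6% over all genes), 24 and 23 without WT spermatocyte replicate 3 (19.9% and 17.5%), 9 and 13 without WT spermatogonia replicate 1 (7.25% and 8.57%), 8 and 14 without spermatogonia replicate 3 of either genotype (7.67% and 9.19% without that of WT, 5.76% and 9.32% without that of KO), and 6 and 16 with spermatocyte replicates 1 and 4 summed (5.12% and 9.71%). In WT from spermatogonia to spermatocytes 40 were higher and 30 lower (29.2% and 23.3% over all genes), or 23 and 55 under library totals (18.7% and 35.8% over all genes). In KO Eif4a2 and Sycp2 were called higher, but none was without any 1 of the KO spermatogonia libraries or with the replicate block, 6 were higher without KO spermatocyte replicate 2 (3.6% of all genes), and 8 were higher and 2 lower by DESeq2 (8.6% and 1.0% of all genes).

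The values that follow are log2 fold changes of KO over WT in spermatocytes with their SE, each called by edgeR at an adjusted p under 0.01, and the counts are to be read against the 28.0% of all genes that were higher and the 30.7% that were lower. Among RNA-binding proteins of spermatogonia and meiotic entry, 5 of 15 were higher in KO spermatocytes and 3 lower. Elavl2 (3.17 ± 0.70) and Lin28a (2.89 ± 0.76), an RNA-binding protein of undifferentiated germ cells, rose most, and Igf2bp3 (-1.94 ± 0.32) fell most. The call of Lin28a was lost without KO replicate 2 or 3 or WT replicate 1, 2 or 4 (edgeR adjusted p 0.0104 to 0.0211). Of 21 proteins of germ cell RNPs and storage, 5 were higher and 9 lower. Fmr1 (4.91 ± 0.80), the gene of the fragile X protein, had 311 to 774 CPM in KO and 6.20 to 61.4 CPM in WT, Stau2 rose by 2.88 ± 0.49, and Ddx25 (-4.12 ± 0.31), an RNA helicase of late male germ cells, and Khdrbs3 (-3.41 ± 0.22) fell most. Without WT replicate 3 the values were 4.16 for Elavl2, 3.98 for Lin28a, 6.21 for Fmr1 and 3.50 for Stau2.

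Of 11 further genes of cytoplasmic polyadenylation, 2 were higher, Tent2 (1.62 ± 0.35), a cytoplasmic poly(A) polymerase, and Parn (2.49 ± 0.48), a deadenylase, and Sympk (-1.63 ± 0.21) was lower. Of 8 poly(A) polymerases 3 were higher and 2 lower, with Tent5a (3.01 ± 0.39) and Tent4a (1.82 ± 0.37) up and Tent5b (-4.67 ± 0.53) and Tent5c (-2.56 ± 0.55) down. Of 14 poly(A)-binding proteins and partners 6 were higher and 5 lower. Pabpc4 (2.92 ± 0.69) and Gspt2 (2.89 ± 0.55), a translation release factor, rose most, the call of Pabpc4 being lost without KO or WT replicate 2 (edgeR adjusted p 0.0110 in each case), and Pabpc2 and Pabpc6 (-5.72 ± 0.58) fell most. Without WT replicate 3 the values were 3.71 for Pabpc4, 3.61 for Gspt2 and 3.12 for Parn. Pabpc genes are near copies of one another, so reads may be shared between them.

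Of 11 cap-binding and scaffold initiation factors 4 were higher and 2 lower. Eif4e3 (4.39 ± 0.72) and the translation repressor Eif4ebp1 (2.90 ± 0.71) rose most, the call of Eif4ebp1 being lost without KO replicate 2 or 3 or WT replicate 1 or 2 (edgeR adjusted p 0.0101 to 0.0129), and Eif4e2 (-2.23 ± 0.28) and the scaffold Eif4g3 (-2.07 ± 0.25) fell. Of 17 genes of the CCR4-NOT deadenylase and its adaptors 3 were higher and 4 lower, with Btg2 (4.81 ± 0.79) and Btg3 (2.72 ± 0.55) up and Btg4 (-3.85 ± 0.40) and Cnot1 (-2.10 ± 0.28), the scaffold of the complex, down. Without WT replicate 3 the values were 3.59 for Eif4ebp1, 5.62 for Btg2 and 3.61 for Btg3. Of 5 mRNAs known as bound or regulated by DAZL or CPEB1, Ddx4 (-1.60 ± 0.19) and Sycp2 (-0.86 ± 0.21) were lower and the other 3 were not called. The call of Sycp2 was lost under library totals (log2 fold change -0.19, edgeR adjusted p 0.442) and without KO replicate 1 or WT replicate 4 (edgeR adjusted p 0.0145 and 0.01003). All 10 mRNAs known as stored by YBX2 or translated late were lower. Smcp had 0 to 0.133 CPM in KO and 15.7 to 202 CPM in WT, and Gapdhs 0 to 0.381 and 22.2 to 245 CPM. Of these 10 genes, 7 are also in the pachytene and spermatid marker lists.

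**Figure D5:**
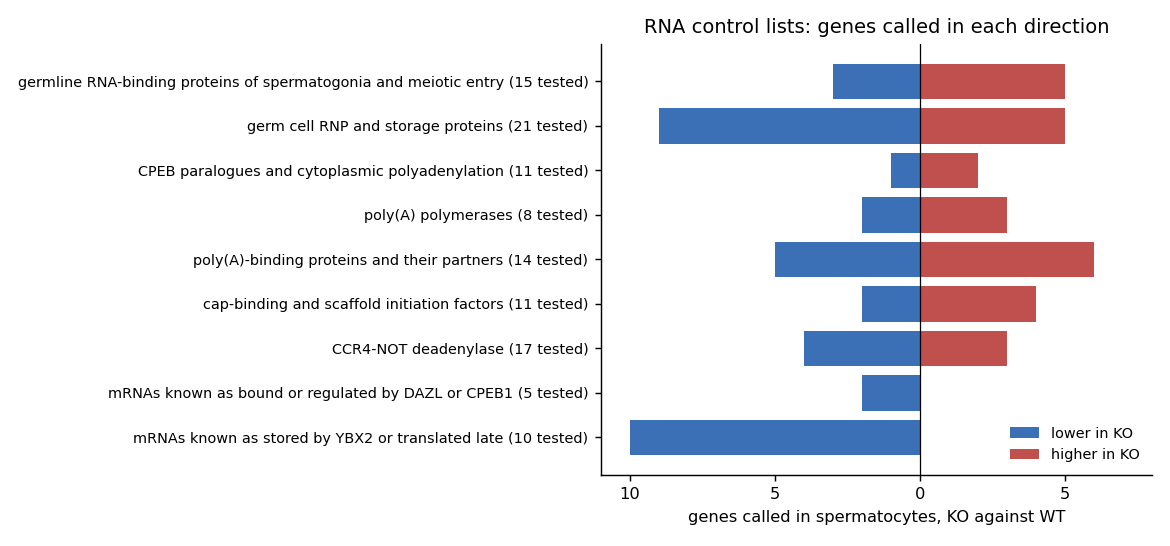
Number of genes called higher (right) and lower (left) in KO than in WT spermatocytes at an edgeR adjusted p under 0.01 in 9 lists of mRNA control genes, with the number tested beside each list. Calls run in both directions in 7 lists, and the list of mRNAs stored by YBX2 or translated late has 10 of 10 lower.

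The genes whose log2 CPM ran most like that of a member over the 14 libraries, among 16872 genes, were Bcl9, Agps and Pts for Dazl (Pearson r 0.996 to 0.993), Ebf3, Rnf128 and Ddhd2 for Cpeb1 (0.995 to 0.991), and Mllt10, 2610301B20Rik and Rdh11 for Boll (0.997 to 0.995). They were Wdr93, Iqcd and Tcea2 for Ybx2 (0.998 to 0.997), Bpi and Arl3 for Ybx3 (0.999 and 0.998) and AI429214, Smc4 and Ccdc148 for Cpeb2 (0.990 to 0.989). For Papolb they were Rsph6a, Tekt3 and Ppp1r42 (0.998 to 0.997) and for Pabpc1 Ino80c, 4932422M17Rik and Trafd1 (0.997 to 0.996). The 14 libraries form 4 groups, so these values describe a shared pattern over the groups.

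Because DNMT3C methylates young retrotransposons, the members' loci were searched for copies of them. The deposited table of single TE copies listed 0 copies within Papolb, 1 within Ybx2, 14 within Dazl, 14 within Pabpc1, 27 within Ybx3, 42 within Cpeb2, 182 within Cpeb1 and 216 within Boll. None of them was of the L1Md_T, L1Md_A, L1Md_Gf, IAP, MMERVK10C or RLTR10C families.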

How the data were processed

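PolyA RNA of sorted cells was sequenced with a stranded kit. The authors aligned reads to GRCm38 with STAR (2.7.3a), kept up to 100 alignments per read and counted reads per gene (GENCODE M25) and transposable element (TE) subfamily with TEtranscripts in its multi mode. The deposited counts are raw and not normalized. The authors' TPM values per TE copy, made with TElocal, served only to list the copies within the members' loci. Replicates are named by the sample titles. Spermatogonia replicate 3 is the count column numbered 4, matched by the sample's description. The study left out 1 further spermatogonia replicate per genotype for RNA quality, and calls the libraries biological replicates without naming a mouse for each, so p-values measure the spread between these samples.

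Members and lists were chosen with earlier results of these data known, and no support is drawn from that choice. Counts of genes and TE subfamilies were filtered (filterByExpr), scaled (TMM) and tested with edgeR's quasi-likelihood test (4.0.16, R 4.3.3), two-sided, with Benjamini-Hochberg adjustment over all features tested. Each stage was fitted alone for KO against WT. Stage contrasts and the difference of genotype effects came from 1 fit of the 14 libraries over the features in both tables. Levels per length used exons merged over GENCODE M21, in which 99.6% of gene IDs were found. The fits were tested on simulated counts. Alternatives were DESeq2 (1.42.0), other scalings and filters, an adjusted p under 0.05, a replicate block, leaving out each library, and spermatocyte replicates 1 and 4 summed. Paralogue ratios (0.5 count added) were compared by exact permutation tests (SciPy 1.17.1) with 6 p-values adjusted together. Named from each list were the 2 called genes with the largest rise and fall in spermatocytes, at a mean count of at least 100, and likeness used genes with a mean CPM of at least 1. Of the genes these rules name, 2 are not reported here. The groups share replicate numbers. In spermatogonia, same-numbered KO and WT libraries deviated together from their group means (correlations 0.66, 0.15 and 0.26), so blocked values are given there where they change a call or a count of calls, while KO replicate 2 correlated best with WT replicate 3 (0.29). In spermatocytes and the WT course same-numbered libraries did not all deviate together. In the KO course they did (correlations 0.39, 0.04 and 0.26), and with the block 224 genes but no member were called there.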

Additional observations from a re-analysis of the deposited data

Results flagged for a closer look

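The Ybx2 level of WT spermatocyte replicate 3, 2539 CPM, lay farther from the other WT spermatocytes (4138 to 4303 CPM) than Dixon's criterion for 4 samples allows. Of 16 groups examined this was the single one, and chance flags about 1 in 20. The genotype effect differed between spermatocytes and spermatogonia, by the edgeR test of the difference itself, for Ybx2 (-2.84), Ybx3 (-4.12), Cpeb2 (-1.93), Papolb (-4.62) and Pabpc1 (-1.74, all log2), each with the lower value in spermatocytes.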

How the results depend on the processing

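Of 784 fits of a member under an alternative, 743 kept direction and side of the threshold, 31 passed it newly, 7 no longer did and 3 reversed. The reversals were in values near 0, in spermatogonia with 1 library left out, where Dazl ran from -0.15 to 0.0025 and Cpeb1 from -0.32 to 0.085, with a further value of 0.011. Papola in spermatocytes (0.02) reversed too, to -0.041 with DESeq2's size factors and with DESeq2, -0.014 without a filter, -0.088 with replicates 1 and 4 summed and between -0.076 and 0.12 with 1 library left out. The cause was not tested.

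Members called in the difference of genotype effects went from 5 to 8 at an adjusted p under 0.05, 3 with library totals, 8 without WT spermatogonia replicate 2 and WT spermatocyte replicate 3 together (an alternative chosen after seeing the data) and 4 to 8 with 1 library left out. Of all genes 11.1% were higher and 14.6% lower in the main fit. The shares were 23.5% and 22.4% at 0.05, 17.5% and 7.12% with library totals and 17.7% and 17% without those 2 libraries. Without WT spermatocyte replicate 3 alone, which gave 8 members, they were 19.9% and 17.5%. Under library totals the calls of Ybx2 (adjusted p 0.0128), Cpeb2 (0.0149) and Pabpc1 (0.0115) were lost, and that of Ybx2 also without KO spermatogonia replicate 2 (0.0117) or WT spermatogonia replicate 1 (0.0109). Members called were 1 by DESeq2 in spermatogonia (0.658% of all genes higher and 1.83% lower), and in the KO course 1 at 0.05 (7.76% and 0.629%) and 2 without those 2 libraries (3.78% and 0.08%). With 1 library left out they were 6 to 8 in spermatocytes, 8 being without WT replicate 3 (31.4% and 30.3%) and 6 without WT replicate 2 (21.3% and 30.3%). In the WT course they were 8, where 21.5% to 29.5% of all genes were higher and 18.9% to 26.2% lower, and also 8 without those 2 libraries (26.8% and 23.6%).

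Genes called in spermatogonia went from 9 to 56 at 0.05, 514 with DESeq2, 144 without a filter and 0 to 18 with 1 library left out, 0 being without KO replicate 2, where 1545 had an unadjusted p under 0.05. For the difference they went from 6251 to 11191 at 0.05, 9865 with DESeq2, 3521 with replicates 1 and 4 summed and 3793 to 8993 with 1 library left out. In the KO course they went from 742 to 2043 at 0.05, 2337 with DESeq2, 346 with replicates summed and 112 to 1005 with 1 library left out. Library totals turned the split of higher and lower calls from 6145 and 6740 to 8074 and 4880 in spermatocytes, from 2690 and 3561 to 4252 and 1733 in the difference and from 7103 and 5674 to 4541 and 8724 in the WT course.

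With the replicate number as a block, 108 genes were called in spermatogonia, 224 in the KO course, and 7 members in the difference and 8 in spermatocytes (Cpeb1 adjusted p 0.00508), where 11% of all genes were higher and 13.5% lower in the difference and 24.2% and 28.0% in spermatocytes. Same-numbered libraries did not deviate together in every pair in spermatocytes (0.06, 0.20, -0.04 and 0.11) or the WT course (-0.10, -0.06 and 0.29), so there they share only a number. In the KO course each pair was positive (0.39, 0.04 and 0.26). KO spermatogonia replicates 1 and 3 correlated better with spermatocyte replicates 4 and 2 (0.397 each), so these values do not settle a pairing. No member was called in the KO course with the block. Replicate 3 of spermatogonia goes by its title in these courses, and against spermatocyte replicate 4, by its column number, the correlation was -0.27 in WT and -0.42 in KO.

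The paralogue ratios kept their direction. With replicates 1 and 4 averaged, 3 against 3, where no p under 0.10 is possible, the differences were -4.01 for Boll over Dazl, -2.17 for Ybx2 over Ybx1, -2.91 for Ybx3 over Ybx1, -4.63 for Cpeb2 over Cpeb1, -5.76 for Papolb over Papola and -7.82 for Pabpc2 over Pabpc1. With 1 library left out (smallest possible exact permutation p 0.0571) they ran from -4.94 to -3.92, -2.17 to -2.10, -2.95 to -2.70, -5.35 to -4.42, -6.35 to -5.73 and -8.05 to -6.83. Of the list genes named, Lin28a, Tent2, Tent4a, Eif4ebp1 and Sycp2 lost their call with replicates 1 and 4 summed, and Sycp2 also with library totals. Counts of 0 in KO spermatogonia limit Pabpc2 to a bound.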
